A study of Mus musculus with 9 samples.

Results

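Transcripts of 10 genes that act on the extracellular matrix or on proteins at the cell surface were followed in mouse liver macrophages. They are the metalloproteases Mmp8, Mmp9, Mmp12, Mmp14 and Mmp19, the metalloprotease inhibitors Timp1 and Timp2, the membrane sheddases Adam8 and Adam17, and the urokinase receptor Plaur. The genes were taken by symbol from a raw count table of 23413 genes, and all 10 passed the filter on low counts that left 11393 genes to be tested. Liver macrophages positive for F4/80 and CD11b, and low for Gr1 by the study's sort, were profiled by RNA-seq in 9 libraries, each labelled as 1 mouse. NC denotes 2 mice on normal chow and the vehicle group 3 mice on a high-fat diet (HFD) given vehicle. The DPI group was 4 mice on HFD given diphenyleneiodonium (DPI), an inhibitor of flavin-containing enzymes. The study used DPI as an agonist of the receptor GPR3. All mice were C57BL/6 males that started the diets at 5 weeks of age, carried no transgene and were sampled after 8 weeks. DPI was injected at 2 mg/kg every 5 days from week 3. The treatment text of the labels instead names 500 nM DPI or DMSO for 24 h on purified cells, whereas the series design and the study's methods give the injections.

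Matrix metalloproteases are zinc enzymes that are made as inactive precursors and that cut collagens, elastin, gelatin and many signalling proteins. Tissue inhibitors of metalloproteases (TIMPs) block their active sites. ADAM proteases sit in the plasma membrane and release the outer parts of cytokines and receptors, and the urokinase receptor holds urokinase at the cell surface, where it turns plasminogen into plasmin. In the liver, macrophages, infiltrating monocytes and neutrophils are known sources of several of these enzymes, and stellate cells are the main known source of fibrillar collagen and of much TIMP.

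Levels are given as CPM, that is, counts scaled to the library totals after TMM normalization. Library totals lay between 3534325 and 15585775 counts, 3 counts equalled 0.184 to 1.02 CPM, and ribosomal RNA precursor (Rn45s) took 27% to 44.5% of counts. Genes that define resident Kupffer cells were low: Marco was at most 0.0612 CPM, Vsig4 at most 3.0 CPM and Timd4 at most 5.22 CPM, each with a median of 0 over the 9 libraries, and Clec4f ranged from 0 to 45.5 CPM. The summed level of 10 Kupffer cell markers was 78.2 to 214 CPM, of which Emr1, the gene for F4/80, gave 54.9 to 142 CPM, against 5140 to 9960 CPM for 10 monocyte markers. The cells are therefore called sorted liver macrophages below, since these levels go against the label of Kupffer cells. The NC libraries stood apart from each other, with a Spearman rank correlation across genes of 0.74, whereas pairs of vehicle libraries reached 0.867 to 0.88 and pairs of DPI libraries 0.838 to 0.887.

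Per kilobase of annotated exon, Plaur was the most abundant member (mean over the 9 libraries 101 CPM per kb, range 24.5 to 252), followed by Mmp8 (69.8, range 30.2 to 119). Adam8 (12.7, range 2.98 to 23.2), Mmp19 (9.37, range 1.39 to 20), Mmp9 (8.82, range 0.605 to 19.9) and Adam17 (5.3, range 2.35 to 8.16) came next, and Timp2 (2.15), Mmp14 (2.0), Timp1 (0.942) and Mmp12 (0.73) were lowest. Between neighbours in this order only the step from Mmp8 to Adam8 separated ranges that did not overlap. The order therefore separates Plaur and Mmp8 from the other 8 genes. Among those 8, Adam8 (2.98 or more) and Adam17 (2.35 or more) exceeded the highest value of Mmp12 (1.64) in every library, and all other ranges overlapped.

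**Figure D1:**
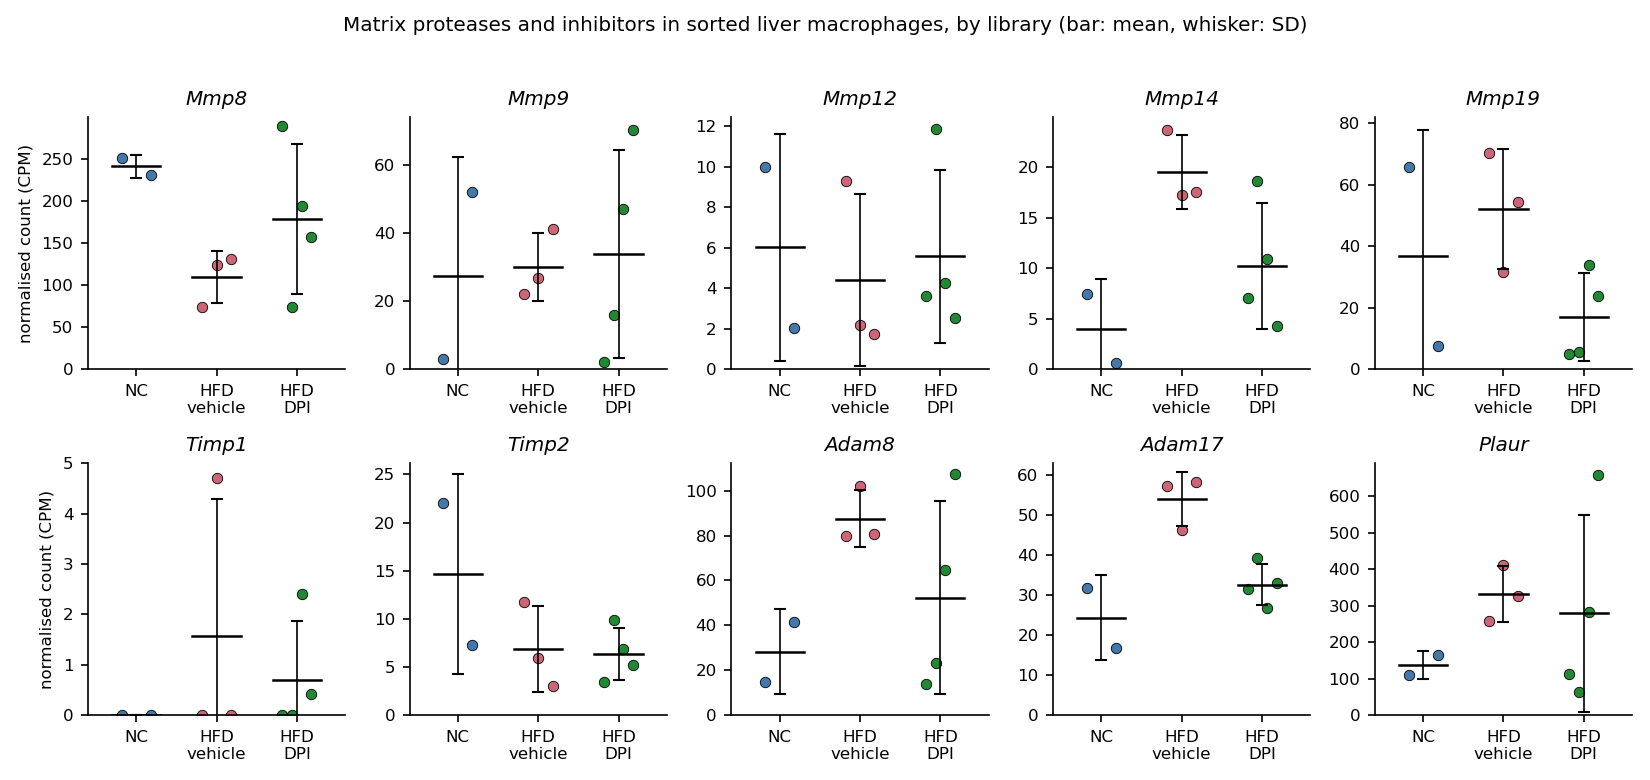
Normalised count in CPM (vertical axis, linear from 0) of each of the 10 genes in every library, by group on the horizontal axis (NC, 2 mice, HFD vehicle, 3 mice, HFD DPI, 4 mice). Points are libraries, horizontal bars group means and whiskers 1 SD, cut at 0. Mmp14, Adam8, Adam17 and Plaur sit higher in every vehicle library than in both NC libraries, and Mmp8 sits lower.

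The genes lie on 7 autosomes and on the X chromosome (GENCODE M21 annotation, GRCm38). Mmp8 (chr9:7558456-7568485) and Mmp12 (chr9:7344381-7369499) belong to the metalloprotease cluster on chromosome 9, 189 kb apart. Mmp9 is at chr2:164940780-164955850, Mmp14 at chr14:54431612-54445364, Mmp19 at chr10:128790910-128800824, Timp2 at chr11:118301069-118355740, Adam17 at chr12:21323509-21373632, Adam8 at chr7:139978932-139992562 and Plaur at chr7:24462484-24475968. Timp1 (chrX:20870166-20874735) lies inside Syn1, which is transcribed from the opposite strand. Adam17 overlaps Iah1, Mmp12 overlaps Mmp1b and Mmp19 overlaps Tmem198b on the opposite strand. Timp2 overlaps Cep295nl on the same strand. These overlaps are of whole gene spans, and whether exons overlap was not examined. The sources used here do not say that counting used strand, so reads from any exon stretch shared by such pairs cannot be told apart.

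The 150 bases before the annotated start are shown for the 3 genes that passed the threshold upward on HFD (Mmp14, Adam8 and Adam17), for the one that passed it downward (Mmp8) and for Plaur, the most abundant member (RefSeq promoter windows, GRCm38.p6, written 5′ to 3′ along the gene). Capitals mark GGGCGG, the core of a GC box, or its reverse complement, and TGANTCA, the core of an AP-1 site.
Mmp14, chr14:54431448-54431597, plus strand: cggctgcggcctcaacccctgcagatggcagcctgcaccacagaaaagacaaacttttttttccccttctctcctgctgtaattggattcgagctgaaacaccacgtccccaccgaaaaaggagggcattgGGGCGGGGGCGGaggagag
Adam8, chr7:139992563-139992712, minus strand: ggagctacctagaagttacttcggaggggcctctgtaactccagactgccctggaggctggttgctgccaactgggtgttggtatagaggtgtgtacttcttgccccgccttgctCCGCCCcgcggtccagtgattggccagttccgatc
Adam17, chr12:21373633-21373782, minus strand: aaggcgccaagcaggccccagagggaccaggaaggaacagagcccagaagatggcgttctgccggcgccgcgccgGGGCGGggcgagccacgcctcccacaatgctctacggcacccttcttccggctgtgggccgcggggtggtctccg
Plaur, chr7:24462333-24462482, plus strand: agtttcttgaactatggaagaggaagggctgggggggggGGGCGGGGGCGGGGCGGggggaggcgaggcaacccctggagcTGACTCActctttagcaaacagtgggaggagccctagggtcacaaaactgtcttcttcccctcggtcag
Mmp8, chr9:7558279-7558428, plus strand: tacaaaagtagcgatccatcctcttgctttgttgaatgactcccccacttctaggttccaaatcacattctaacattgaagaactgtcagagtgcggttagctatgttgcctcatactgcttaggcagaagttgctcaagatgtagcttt

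Windows of 250 bases before to 50 bases after the start were found for 8 of the 10 genes (9 windows, since Mmp12 had a pair), with none for Mmp9 and Mmp19. GGGCGG on either strand was present in the windows of 6 genes (Mmp14, Timp1, Timp2, Adam8, Adam17 and Plaur), against 35.7% of 32851 windows of all genes. The matches of Mmp14 and of Plaur each overlap or abut one another. TGANTCA was present for Plaur, 69 bases before the start, and for Mmp12, against 7.81% of all windows. TATAAA on either strand was present for Mmp8, from 3 bases before the start into the transcript and so only in part within the bases shown, and for Mmp12, against 13.6% of all windows. The GC content of the windows ran from 38.7% (Mmp12) to 70.0% (Adam17), with 46.0% for Mmp8. Timp2, which did not pass the threshold, was at 68.7%. These matches are a description of the windows only.

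HFD vehicle against NC addresses how the diet changed these genes. The sources used here name no injection for the NC mice, so that diet and vehicle injections cannot be told apart in this comparison, and "on HFD" below stands for both. By the study's threshold (log2 fold change of 1 or more in size, p below 0.05 before adjustment), 3 of the 10 genes were upregulated (Mmp14, Adam17 and Adam8) and 1 was downregulated (Mmp8). Of all 11393 genes tested, 7.03% passed upward and 4.63% downward. No member had an edgeR adjusted p (Benjamini-Hochberg over all genes tested) under 0.05, against 7 of all genes, while 4 members had an unadjusted p under 0.05. The number of all genes under that adjusted p ranged from 1 to 568 when 1 library was left out, with the highest number without NC 2, and was 312 by DESeq2, none of them a member. The libraries of the groups did not overlap for 5 members (the same 4 and Plaur), against 27.5% of all genes. The median log2 fold change of the 10 genes was 0.83, also with Timp1 set at its lower bound, and that of all genes was 0.03. DESeq2 called the same 4 genes. When libraries were scaled by their totals alone, the median of all genes moved to -0.26, the share of all calls that were higher fell from 60.3% to 36.6%, and Mmp8 was the only member called. With this scaling the log2 fold changes were 1.96 for Mmp14, 1.37 for Adam8 and 0.84 for Adam17. Leaving out 1 library at a time left 1 to 5 members called: 1 (Adam17) without vehicle 1 and 2 (Adam8 and Mmp9) without NC 2.

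**Figure D2:**
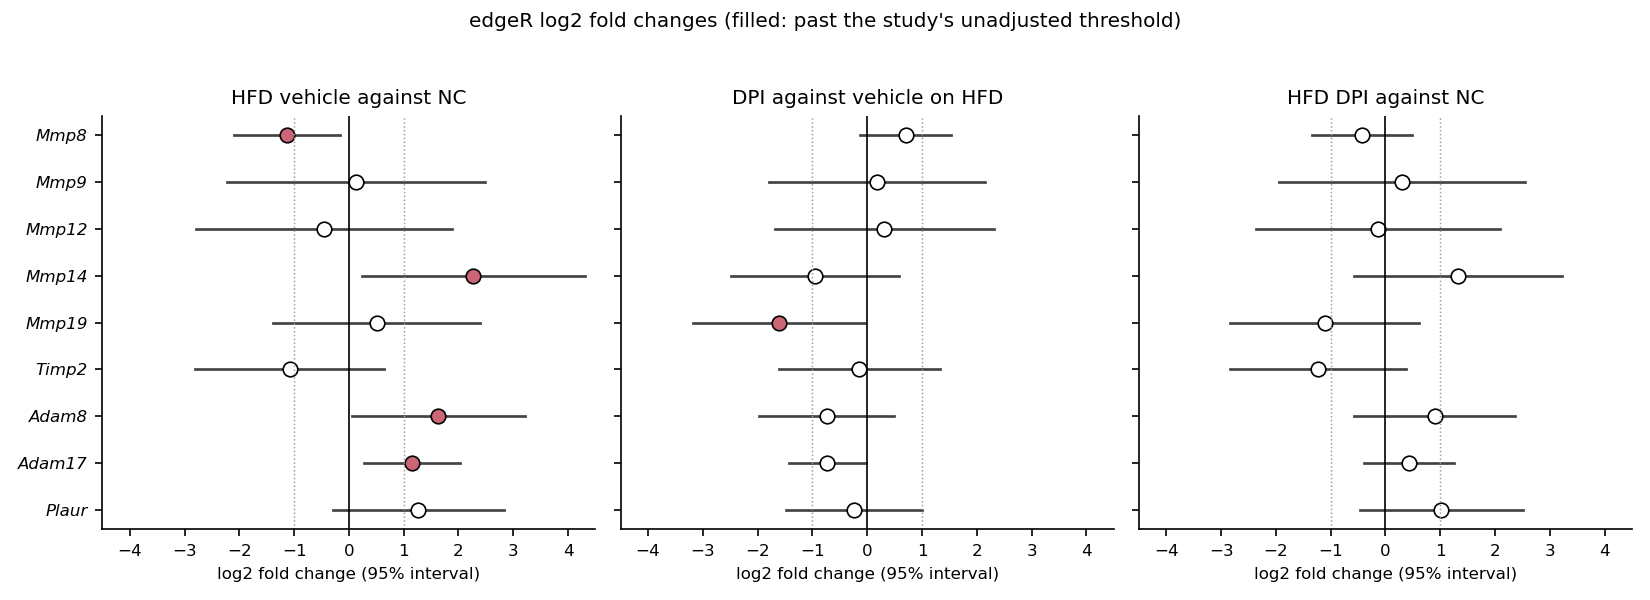
Log2 fold change (horizontal axis) with its 95% interval from edgeR for 9 genes (vertical axis) in each of the 3 comparisons, with dotted lines at a size of 1 and filled points for genes past the study's threshold. Timp1 is left out because both NC libraries held no count of it. Mmp8, Mmp14, Adam8 and Adam17 are filled for HFD vehicle against NC, Mmp19 for DPI against vehicle, and none for HFD DPI against NC.

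Mmp8, known as neutrophil collagenase, was at 250.6 and 231.2 CPM in the NC libraries and at 74.26, 123.9 and 131.2 CPM with vehicle. All vehicle libraries were lower than both NC libraries, which agreed closely with each other. Its log2 fold change was -1.13 ± 0.45 (SE, 95% interval -2.1 to -0.16, edgeR adjusted p = 0.333). The call was lost without NC 1 (-1.06), NC 2 (-1.16) or vehicle 1 (-0.87), with the direction kept. Of 13 neutrophil markers 3 fell on HFD (Camp, Lcn2 and Prtn3) and 1 rose (Mpo), with values given below. Over all 13 the log2 fold changes had a median of 0.56. The part of neutrophil RNA was not tested. With DPI Mmp8 was at 288.6, 73.27, 193.8 and 157.3 CPM, so that DPI 1 exceeded both NC libraries and DPI 2 lay below every vehicle library. The difference between DPI and vehicle was 0.70 ± 0.39 on the log2 scale (edgeR adjusted p = 0.999) and that between DPI and NC was -0.43 (edgeR adjusted p = 0.762).

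Mmp9, or gelatinase B, varied more within groups than between them. It was at 2.91 and 52.2 CPM in NC 1 and NC 2, at 22.2, 26.8 and 41.3 CPM with vehicle, and at 2.14, 15.9, 47.1 and 70.3 CPM with DPI. NC 1 and DPI 1 were the lowest libraries and DPI 4 the highest, and the groups overlapped in each comparison. The log2 fold changes were 0.13 ± 1.1 (SE) for HFD vehicle against NC and 0.17 ± 0.91 for DPI against vehicle, with edgeR adjusted p-values of 0.98 and 0.999. NC decided the sign of the first: it was -0.79 without NC 1 and 3.39, past the threshold, without NC 2, and it was also below 0 without vehicle 3 (-0.12).

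Mmp12, or macrophage elastase, had the lowest mean per kilobase. NC 1 (10 CPM), vehicle 1 (9.31 CPM) and DPI 2 (11.9 CPM) stood above the remaining libraries, which lay between 1.73 and 4.26 CPM. One library of each group was thus high. None of the comparisons passed the threshold, with log2 differences of -0.45 ± 1.1 for HFD vehicle against NC, 0.32 ± 0.93 for DPI against vehicle and -0.14 ± 1.0 for DPI against NC (edgeR adjusted p = 0.91, 0.999 and 0.977).

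Mmp14, a membrane-anchored metalloprotease that activates the precursor of Mmp2 in a complex with Timp2, had the largest fold among the members called. It was at 7.46 and 0.559 CPM in NC, where NC 2 held 3 counts, at 23.7, 17.2 and 17.6 CPM with vehicle, and at 7.04, 18.7, 10.9 and 4.28 CPM with DPI. Every vehicle library exceeded both NC libraries, and 3 of the 4 DPI libraries lay below every vehicle library. Mmp14 was upregulated on HFD by 2.27 ± 0.94 on the log2 scale (4.84-fold, 95% interval 0.24 to 4.31, edgeR adjusted p = 0.346). NC 2 set much of the size: the log2 fold change was 1.41 and no longer called without NC 2, and 5.09 without NC 1, and the call was also lost without vehicle 1 (2.16) and, with the size kept, when only the compared groups were fitted (2.27). DPI against vehicle gave -0.95 ± 0.71 (edgeR adjusted p = 0.999). Against NC the DPI group was at 1.33 ± 0.88 (edgeR adjusted p = 0.606), which became 4.13 and passed the threshold without NC 1.

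Timp2, the soluble inhibitor that also takes part in that complex, did not pass the threshold. It was at 22.0 and 7.27 CPM in NC, at 11.7, 5.98 and 2.97 CPM with vehicle and at 3.43, 9.84, 6.86 and 5.2 CPM with DPI. The groups overlapped, with NC 1 the highest library. Its log2 differences were -1.08 ± 0.80 for HFD vehicle against NC, -0.14 ± 0.68 for DPI against vehicle and -1.23 ± 0.75 for DPI against NC (edgeR adjusted p = 0.598, 0.999 and 0.574).

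The log2 ratio of Mmp14 to Timp2 counts within a library (1 count added to each) was -1.54 and -3.32 in NC, 1.0, 1.5 and 2.47 in the vehicle group, and 1.03, 0.9, 0.66 and -0.27 after DPI. All HFD libraries lay above both NC libraries, and DPI 1 was the only DPI library above a vehicle library. HFD vehicle exceeded NC by 4.09 (two-sided exact permutation p = 0.1, which is the smallest p that 3 against 2 libraries allow, 0.2 after Benjamini-Hochberg adjustment over 4 tests). DPI was lower than vehicle by 1.08 (difference -1.08, exact permutation p = 0.0571, adjusted 0.2, smallest p possible 0.0286), and by 0.67 without vehicle 3 (difference -0.67). Leaving out 1 library gave differences of 3.19 to 4.98 for the first comparison and -1.41 to -0.67 for the second. The ratio compares libraries, and its zero has no meaning for the proteins, since transcript lengths differ.

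Timp1 was at or under 3 counts in 6 of the 9 libraries: it held 26 counts in vehicle 2, 13 in DPI 3 and 4 in DPI 4, and 0 in every other library. In CPM these were 4.71, 2.41 and 0.407. The vehicle mean was at least 2.84-fold higher than NC, taking 3 counts per library as the floor, but it rested on vehicle 2. DPI against vehicle gave -1.16 ± 2.0 on the log2 scale (edgeR adjusted p = 0.999), so that no difference was detectable with these libraries. The log2 ratio of Mmp9 to Timp1 was 4.09 and 8.13 in NC, 6.66, 2.46 and 7.39 in the 3 libraries given vehicle, and 5.17, 5.58, 4.19 and 7.11 after DPI. Vehicle 2 was the lowest and NC 2 the highest library, and all groups overlapped. In libraries with 0 counts of Timp1 the ratio is set by the Mmp9 count and the added count alone, and so also by depth. It differed by -0.61 between HFD vehicle and NC (exact permutation p = 0.9, adjusted 1) and by 0.01 between DPI and vehicle (exact permutation p = 1, adjusted 1), and the sign of both changed when vehicle 2 was left out (0.91 and -1.51). The first also changed sign without NC 2 (1.42), and the second without DPI 2 (-0.02) or DPI 4 (-0.52).

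**Figure D3:**
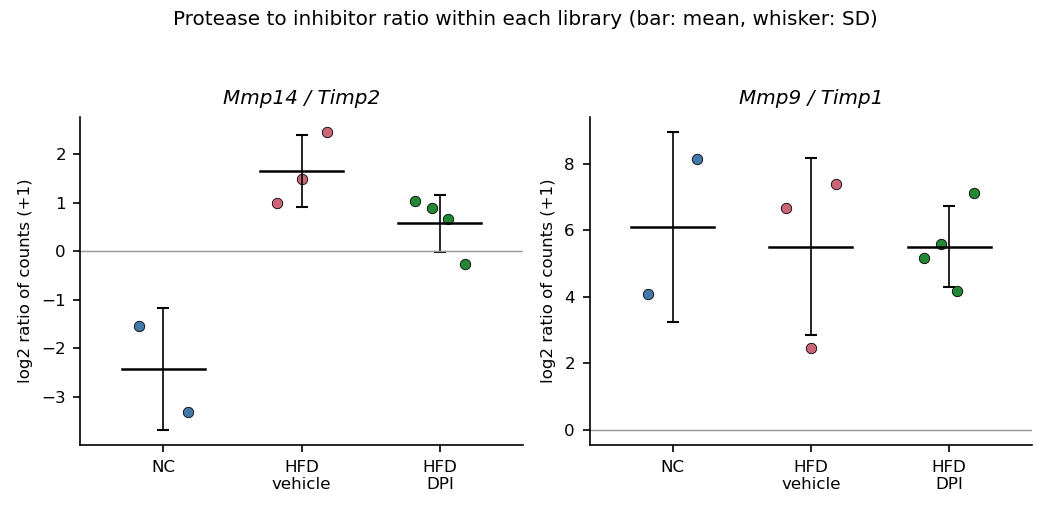
Log2 ratio of protease to inhibitor counts within each library (vertical axis, 1 count added to each gene) by group, for Mmp14 to Timp2 and for Mmp9 to Timp1. Points are libraries, bars means and whiskers 1 SD (NC n = 2, vehicle n = 3, DPI n = 4). The Mmp14 to Timp2 ratio is below -1.5 in both NC libraries and above it in every other library, while the Mmp9 to Timp1 ratio overlaps among all groups.

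Adam8, a sheddase of leukocytes, was at 14.7 and 41.6 CPM in NC, at 79.8, 102 and 80.7 CPM with vehicle, and at 13.8, 23.1, 64.9 and 107 CPM with DPI. The vehicle libraries were close together and above both NC libraries, whereas the DPI libraries ran from below NC 1 to above vehicle 2. Adam8 was upregulated on HFD by 1.64 ± 0.73 on the log2 scale (3.11-fold, edgeR adjusted p = 0.371). This call was lost without NC 1 (1.08), vehicle 1 (1.75), vehicle 2 (1.51), vehicle 3 (1.74) or DPI 3 (1.63). DPI against vehicle gave -0.74 ± 0.57 (edgeR adjusted p = 0.999), and -1.37, past the threshold, without DPI 4. Adam8 and Plaur tended to be low where endothelial markers were high: the log2 sum of 10 endothelial markers had a Pearson r of -0.77 (Spearman rho -0.63) with Adam8 and -0.67 (-0.62) with Plaur over the 9 libraries, which share diet and treatment. Pearson r was also below 0 for Timp1 (-0.68), Mmp14 (-0.6), Mmp19 (-0.6), Mmp9 (-0.53) and Adam17 (-0.52). It was above 0 for Mmp8 (0.42), Timp2 (0.22) and Mmp12 (0.2). The sum was 147 and 247 CPM in NC, 9.42 to 16.4 CPM with vehicle and 4.26 to 181 CPM with DPI. Of 9 endothelial markers tested, 1 rose and 5 fell on HFD, and 3 rose and 0 fell with DPI. The part of endothelial RNA was not tested.

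Adam17, the sheddase that releases TNF and its receptors, varied little within the HFD groups. It was at 31.8 and 16.8 CPM in NC, at 57.2, 46.2 and 58.4 CPM with vehicle and at 31.5, 39.4, 26.7 and 33.0 CPM with DPI. Every vehicle library lay above all NC and all DPI libraries. On HFD it was upregulated by 1.15 ± 0.41 on the log2 scale (2.22-fold, edgeR adjusted p = 0.289), a call lost only without NC 2 (0.79) among the libraries left out in turn. With DPI it was lower than with vehicle by -0.73 ± 0.33 (95% interval -1.43 to -0.02, edgeR adjusted p = 0.999), a size under the threshold of 1. The DPI group and NC differed by 0.42 ± 0.38 (edgeR adjusted p = 0.732) and overlapped.

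Mmp14 and Adam17 ran opposite to the summed level of hepatocyte markers, of which Trf was the largest part in every library. The summed level of 10 hepatocyte markers was 307 and 449 CPM in NC, 211, 169 and 168 CPM in the vehicle libraries, and 342, 220, 206 and 253 CPM in DPI 1 to DPI 4, of which Trf gave 126 to 299 CPM. Every vehicle library was thus below both NC libraries, and 3 of the 10 markers fell on HFD, 0 rose, and 0 passed the threshold in DPI against vehicle. Over the 9 libraries, which share diet and treatment, the log2 sum had a Pearson r of -0.85 (Spearman rho -0.7) with Mmp14, -0.81 (-0.72) with Adam17 and 0.65 (0.62) with Mmp8. The part of hepatocyte RNA was not tested.

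Among 12 known substrates of Adam17, all tested, 1 passed the threshold on HFD (Hbegf, with 0 counts in both NC libraries and 0 to 7.42 CPM with vehicle) and 0 passed it with DPI by edgeR. Hbegf lost its call without NC 1 (log2 fold change 7.19), NC 2 (7.19), DPI 3 (7.2) or DPI 4 (7.08), values that are no bounds since NC held no count. Tnf was at 46.4 and 7.46 CPM in NC, 35.0 to 60.1 CPM with vehicle and 12.2 to 45.6 CPM with DPI, and its log2 differences were 0.72 ± 0.67 for HFD vehicle against NC and -0.46 ± 0.55 for DPI against vehicle (edgeR adjusted p = 0.704 and 0.999). NC set the first: it was 2.57, past the threshold, without NC 1 and -0.04 without NC 2, and HFD DPI against NC also passed without NC 1 (2.11). Tnfrsf1b and Il6ra, named here after their values were seen, had an unadjusted p under 0.05 with DPI at log2 fold changes of -0.82 and -0.72, below the size of the threshold (edgeR adjusted p = 0.999 for both). Of 9 further ADAM genes and their partners 6 were tested and 0 passed in either of these comparisons. Adam10, the nearest relative of Adam17, was at 66.2 to 101 CPM in NC and 60.9 to 72.5 CPM with vehicle (log2 difference -0.29 ± 0.36, edgeR adjusted p = 0.799). Rhbdf2, which carries Adam17 to the cell surface, differed by -0.15 ± 0.51 on HFD and by -0.57 ± 0.43 with DPI (edgeR adjusted p = 0.944 and 0.999). The rise of Adam17 on HFD thus stood beside no passing change in these partners, and the difference between these genes was not tested.

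Plaur was at 110.2 and 165.4 CPM in NC, at 258, 411.7 and 325.9 CPM with vehicle and at 111.6, 64.11, 282.2 and 658.3 CPM with DPI. Every vehicle library exceeded both NC libraries, and the DPI libraries ran from the lowest to the highest of all 9. The log2 difference on HFD was 1.27 ± 0.72 (edgeR adjusted p = 0.476), and it passed the threshold without DPI 2 (1.31) or DPI 4 (1.27), with only the compared groups in the fit (1.27) and with no filter on low counts (1.27). DPI against vehicle was -0.25 ± 0.58 (edgeR adjusted p = 0.999), -1.12 without DPI 4, which passed the threshold, 0.07 without DPI 2 and 0.02 without DPI 1. Plau, which encodes its ligand urokinase, is described with Mmp19.

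Mmp9, Adam8 and Plaur varied among libraries together with some neutrophil genes. The summed level of 13 neutrophil markers, none of them a member, was 1440 and 3510 CPM in NC 1 and NC 2, 2620, 3490 and 4030 CPM with vehicle, and 1010, 1000, 4050 and 5760 CPM with DPI, and S100a8 and S100a9 gave most of it in the 6 libraries with the higher sums. No marker was at 0 in every library. In NC 1, DPI 1 and DPI 2, where the sum was 1000 to 1440 CPM, Mmp9 was 2.14 to 15.9 CPM, Adam8 13.8 to 23.1 CPM and Plaur 64.11 to 111.6 CPM. In the other 6 libraries Mmp9 was 22.2 to 70.3 CPM, Adam8 41.6 to 107 CPM and Plaur 165.4 to 658.3 CPM. For each of these 3 genes all of the former libraries were thus below all of the latter, and the share of all genes with such an order was not counted. Of the 13 markers 4 (S100a8, S100a9, Retnlg and Cxcr2) were also lower in all of the former libraries, while the other 9 overlapped between these sets of libraries. The sets were chosen by the sum of these same markers, so the separation of S100a8 and S100a9, which gave much of it, follows from the choice. The granule genes Ngp and Camp were at 185 and 48.2 CPM in NC 1 and at 160 and 42.9 CPM in DPI 1, above their levels in every vehicle library (45 to 137 and 11.1 to 22.5 CPM), and Mpo was at 40.8 CPM in DPI 1. Mmp8 did not follow the order of the sums either, being highest in DPI 1. Like Mmp8, the granule genes Camp (33.9 and 48.2 CPM in NC), Lcn2 (192 and 305 CPM) and Prtn3 (27.3 and 78.3 CPM) were lower in every vehicle library (11.1 to 22.5, 77.4 to 138 and 12.4 to 15.5 CPM) than in both NC libraries. Mpo, another granule gene, went the other way, from 0 and 1.12 CPM in NC to 7.67, 17.1 and 22.8 CPM with vehicle, and Ngp, Ltf and Elane overlapped between these groups. Of the 13 markers 1 rose and 3 fell on HFD and 3 rose with DPI by the study's threshold, those that fell being Camp, Lcn2 and Prtn3 with log2 fold changes of -1.18, -1.08 and -1.89 (edgeR adjusted p = 0.335, 0.363 and 0.182) and the one that rose being Mpo (4.79 ± 1.4, edgeR adjusted p = 0.221). The sort kept cells low for Gr1, an antigen that neutrophils carry at a high level. The part of neutrophil RNA in these results was not tested, and in such bulk samples fewer cells of a type and less RNA per cell cannot be told apart.

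**Figure D4:**
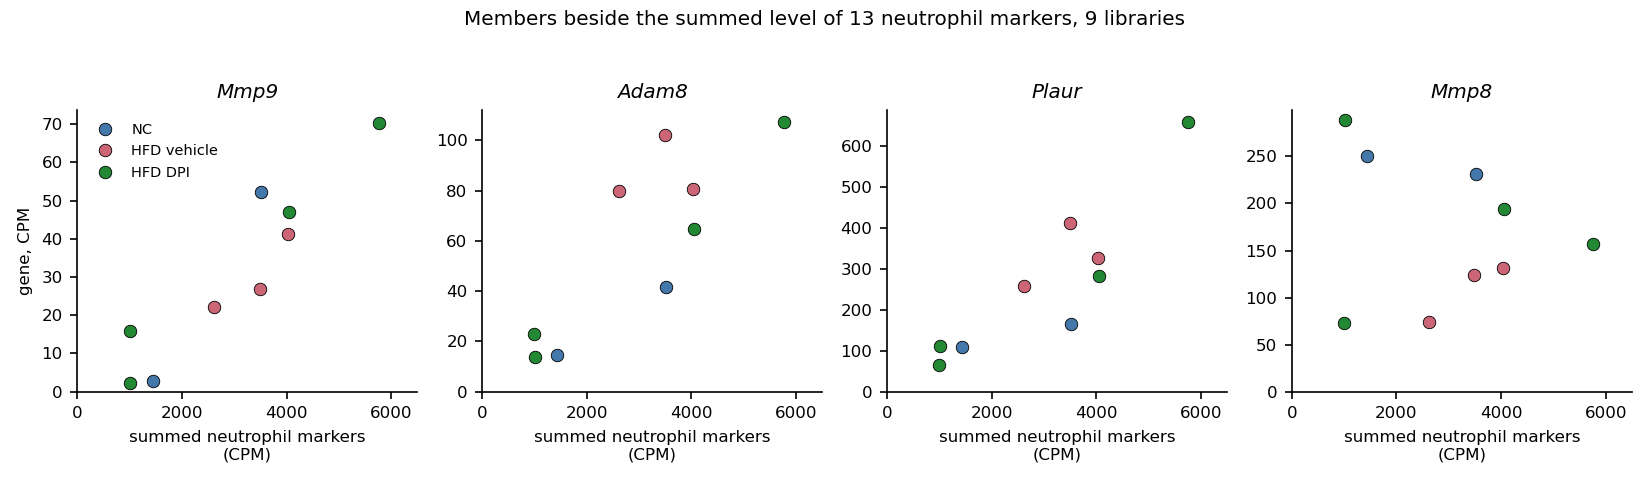
Level of Mmp9, Adam8, Plaur and Mmp8 (vertical axes, CPM) against the summed level of 13 neutrophil markers in the same library (horizontal axis, CPM), with 1 point per library coloured by group. Mmp9, Adam8 and Plaur are low in the 3 libraries with sums of 1000 to 1440 CPM and highest in DPI 4, whereas Mmp8 is highest in DPI 1.

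DPI against vehicle on HFD addresses whether the treatment altered these genes. Of the 10, 0 passed the threshold upward and 1, Mmp19, passed it downward, against 1.5% and 1.34% of all genes tested. The groups did not overlap for 1 member, Adam17, against 5.85% of all genes. By edgeR 2 members (Mmp19 and Adam17) had an unadjusted p under 0.05 and 0 an adjusted p under 0.05, as did 0 of all genes (2 by DESeq2, neither a member), and DESeq2 also called Mmp19 alone. No member was called without vehicle 1, vehicle 3, DPI 1 or DPI 2, and 2 (Adam8 and Plaur) were called without DPI 4. The median log2 fold change of the members was -0.49, with 3 positive and 7 negative, and that of all genes was 0.04. Scaling by totals alone raised the share of higher calls from 52.8% to 66% and left no member called, with Mmp19 at -1.49. This comparison and HFD vehicle against NC share the vehicle libraries.

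Mmp19, a metalloprotease that cuts basement membrane proteins, was at 65.8 and 7.64 CPM in NC, at 70.5, 31.7 and 54.4 CPM with vehicle and at 4.9, 5.43, 33.7 and 23.9 CPM with DPI. DPI 1 and DPI 2 were far below every vehicle library, while DPI 3 was above vehicle 2. It was downregulated with DPI by -1.61 ± 0.73 on the log2 scale (3.06-fold lower, 95% interval -3.18 to -0.05, edgeR adjusted p = 0.999). The call was lost without vehicle 1 (-1.34), vehicle 3 (-1.59), DPI 1 (-1.29), DPI 2 (-1.34) or DPI 4 (-1.83), and kept its direction in each. HFD vehicle against NC gave 0.51 ± 0.88 (edgeR adjusted p = 0.865), and this difference was 2.77, past the threshold, without NC 1 and -0.31 without NC 2. Eosinophil markers were high in the DPI libraries where Mmp19 was lowest: the sum of 7 markers was 163, 178, 35 and 111 CPM in DPI 1 to DPI 4, against 58.9 to 71.4 CPM with vehicle and 73.4 and 103 CPM in NC. Of 6 tested, 4 rose with DPI and 0 fell. The part of eosinophil RNA was not tested.

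Plau also fell with DPI. It was at 40.9 and 4.29 CPM in NC, at 48.8, 13.6 and 30.4 CPM with vehicle and at 15.1, 10.9, 8.89 and 1.22 CPM with DPI. As for Mmp19, NC 1 and vehicle 1 were the highest libraries, and only DPI 1 exceeded a vehicle library. The log2 fold change was -1.78 ± 0.79 with DPI (edgeR adjusted p = 0.999) and 0.45 ± 0.95 on HFD (edgeR adjusted p = 0.893). The latter was 2.85, past the threshold, without NC 1 and -0.38 without NC 2, and HFD DPI against NC passed at -2.15 without NC 2. Its call was lost without vehicle 1 (-1.29), vehicle 3 (-1.79), DPI 2 (-1.87), DPI 3 (-1.78) or DPI 4 (-1.4), and with thinned counts (-1.61). Of 11 further genes of the plasmin system 7 were tested, of which Plau was the only one to pass in this comparison and 0 passed on HFD.

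HFD DPI against NC gave no call among the members: 0 of 10 passed the threshold by edgeR or DESeq2 and 0 had an unadjusted p under 0.05, against 9.29% of all genes that passed. The groups overlapped for all 10, against 20.2% of all genes whose groups did not. The median log2 fold change was 0.36, or 0.32 with Timp1 at its lower bound, against 0.04 for all genes. Of all calls 67.2% were higher, or 46.7% with scaling by totals alone. The intervals were wide for some members, such as Mmp14 (-0.57 to 3.22) and Plaur (-0.46 to 2.5), and narrower for Adam17 (-0.4 to 1.24) and Mmp8 (-1.35 to 0.49). Leaving out 1 library made calls appear for Mmp14 without NC 1 (4.13, given above), for Mmp9 (3.56), Mmp19 (-1.92) and Timp2 (-1.79) without NC 2, and for Plaur without DPI 2 (1.39). Without NC 1, Mmp19 was 1.16, so its sign was set by that library.

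Most other matrix proteases were near the detection limit. Of 18 further metalloproteases 8 were at 0 in every library and 14 at or under 3 counts in every library, and Mmp25 alone was tested. Mmp25, a membrane-anchored metalloprotease of leukocytes, was at 0.546 and 0.746 CPM in NC and at 4.43, 0.906 and 15.3 CPM with vehicle (log2 difference 3.37 ± 1.3, edgeR adjusted p = 0.313), and at 4.07 to 8.25 CPM with DPI. It rose on HFD, a call lost at a similar size without NC 1 (3.17) and with only the compared groups in the fit (3.36), and lost without vehicle 3 (2.05). In HFD DPI against NC it rose by 3.17 ± 1.2 (edgeR adjusted p = 0.409), a call also lost without NC 1 (2.97). Mmp2, the gelatinase that Mmp14 activates, was at 0 in 6 libraries and at most 2.37 CPM, and Mmp13 was at most 2.26 CPM. Of 8 ADAMTS proteases 1 was tested and 0 passed.

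Further inhibitors were sparse as well. Timp4 and A2m were at 0 in every library. Timp3 was at 10.2 and 12.7 CPM in NC and at 3.99, 0.181 and 0.247 CPM with vehicle (log2 difference -2.95 ± 1.5, edgeR adjusted p = 0.419), and at 0.185 to 10.5 CPM with DPI. Reck, a membrane-bound metalloprotease inhibitor, had 0 counts in NC, 0 to 4.17 CPM with vehicle and 0 to 6.67 CPM with DPI. Timp3 did not pass the threshold on HFD, but it did with DESeq2 (-2.99), the likelihood ratio test (-2.94), scaling by totals (-3.18), no filter (-2.94) and thinned counts (-3.11), and without vehicle 1 (-5.59) or DPI 3 (-2.95). Without vehicle 1 it also passed for DPI against vehicle (4.15). Reck did not pass either, but did on HFD and in HFD DPI against NC with DESeq2, the likelihood ratio test and no filter, and without vehicle 1 or DPI 1, and in HFD DPI against NC without DPI 2. Its fitted fold changes are no bounds, since NC held no count. Timp3 was high in the libraries where endothelial markers were high, whose sum, given above for NC and vehicle, was 181, 87.5, 4.26 and 32.5 CPM in DPI 1 to DPI 4. The part of endothelial RNA was again not tested.

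Of 12 matrix proteins that these enzymes act on, 6 were tested, and 1 rose and 2 fell on HFD. Spp1 (osteopontin), a secreted matrix protein, was at 2.91 and 8.2 CPM in NC, 37.5, 77.2 and 18.6 CPM with vehicle and 15.4, 21.0, 12.6 and 14.7 CPM with DPI. It rose on HFD by 3.0 ± 0.70 (edgeR adjusted p = 0.131) and fell with DPI by -1.49 ± 0.51 (edgeR adjusted p = 0.999), a call lost without vehicle 2 (-0.82). Spp1 is also 1 of 8 markers of lipid-associated macrophages, of which 3 rose and 0 fell on HFD and 0 rose and 1 fell with DPI, with median log2 fold changes of 0.80 and -0.68. Among them Lpl (lipoprotein lipase) was at 21.6 and 22.4 CPM in NC, 94.8 to 231 CPM with vehicle and 75.3 to 81.1 CPM with DPI. Trem2 went the other way on HFD, with 48.4 and 38.4 CPM in NC and 22.2, 32.1 and 28.2 CPM with vehicle. Of the 8 log2 fold changes on HFD 5 were positive and 3 negative. The summed level of the 8 markers overlapped among the groups (3860 and 5050 CPM in NC, 2880 to 6470 CPM with vehicle and 3640 to 8230 CPM with DPI), and their part in the members' values was not tested. Col4a1 and Sparc, a basement membrane collagen and a collagen-binding protein, fell on HFD, with log2 fold changes of -4.48 ± 1.5 and -3.68 ± 1.7 (edgeR adjusted p = 0.268 and 0.385). In NC, Col4a1 was at 16.7 and 5.41 CPM and Sparc at 3.82 and 25.5 CPM. The vehicle libraries held 2, 4 and 1 counts of Col4a1 and 0, 18 and 0 counts of Sparc, so the sizes of these folds rest on few counts. The means of Col4a1 and Sparc were highest in NC, as was the summed level of the endothelial markers, though not each marker: Pecam1 was lowest in NC. Col4a1 lost its call without NC 1 (-3.43), and Sparc lost its call without NC 2 (-1.71), vehicle 1 (-3.06), vehicle 3 (-3.08), DPI 1 (-3.68), DPI 2 (-3.63) or DPI 4 (-3.68), with only the compared groups fitted (-3.68) and without Rn45s (-3.64). For DPI against vehicle, Col4a1 passed upward without DPI 3 (2.74), and Sparc passed upward without vehicle 2. Fibrillar collagen was nearly absent, with Col1a2 at 0 in every library, and 10 stellate cell and fibroblast markers summed to 0 to 11.6 CPM.

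Across the 9 libraries, the pairs of members with the most similar log2 CPM were Adam8 and Plaur (Pearson r = 0.895), Mmp14 and Adam17 (0.879) and Mmp9 and Adam8 (0.853), and the least similar pair was Mmp8 and Adam17 (-0.676). Among 6493 genes with a mean of at least 10 CPM, the closest to Adam8 were Hilpda (0.996) and Srgn (0.981), those closest to Plaur were Dusp2 (0.984) and Gpr137b-ps (0.982), and those closest to Mmp9 were H2-Q10 (0.974) and Nufip1 (0.953). Mmp14 was most like Cfb (0.951) and Orai2 (0.946), Adam17 most like Madd (0.959) and Fcgr2b (0.941), and Mmp19 most like Twf1 (0.954) and Msn (0.93). For Mmp8 these were Fis1 (0.967) and Mrpl33 (0.955), for Timp2 Ube2g1 (0.949) and Arhgap39 (0.896), for Mmp12 Snx27 (0.866) and Tmem55a (0.856), and for Timp1 1110004F10Rik (0.895) and Ptma (0.889). These values describe 9 points that share diet, treatment, depth and cell composition, and the highest of many correlations is high by selection.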

How the data were processed

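RNA-seq of polyA RNA from sorted liver macrophages was deposited by the authors as 1 table of raw counts per gene for 9 libraries, with no normalization. Per the study's methods, reads were aligned to mm10 with bowtie2 and quantified with RSEM, while the submitters' processing notes name TopHat2 and edgeR. Groups and replicate numbers came from the labels. Tests of these whole-number counts used edgeR 4.0.16 under R 4.3.3 (filterByExpr, TMM, glmQLFit and glmQLFTest, 1 fit over 3 groups, Benjamini-Hochberg adjustment over 11393 genes), the procedure was tested on simulated data, and the study's threshold was kept. CPM used TMM-scaled totals. Log2 CPM used a prior count of 2. Protease to inhibitor ratios were compared by two-sided exact permutation tests. Floors of 3 counts cover counting error only.

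The members and gene lists were chosen with earlier results of these data known. Named were all 10 members, 10 genes set in advance of the fits (Mmp2, Mmp13, Mmp25, Timp3, Reck, Adam10, Rhbdf2, Plau, Tnf and 1 that is not reported here), up to 3 genes per pathway list at the study's threshold in HFD vehicle against NC or in DPI against vehicle, and the most similar pair of genes for each member. Exon lengths and positions came from GENCODE M21 and promoters from RefSeq. Alternatives used DESeq2 1.42.0, other scalings and filters, a likelihood ratio test, a fit of the groups compared only, a replicate block, thinning to the smallest total, and each library left out in turn. Figures were drawn with matplotlib 3.10.9.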

Additional observations from a re-analysis of the deposited data

Results flagged for a closer look

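Of 24 genes whose 4 DPI libraries were examined for a single distant value, 2 were singled out, and the criterion passes by chance in about 1 in 20 groups of normally distributed values, a rate that values with many zeros need not follow. Timp1 stood at 2.41 CPM in DPI 3, far from the next DPI library at 0.407 CPM. Mmp13 stood at 2.26 CPM in DPI 1, the deepest library, and was at 0 in the other DPI libraries. These values rested on 13 counts of Timp1 and 37 counts of Mmp13.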

How the results depend on the processing

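Under 10 alternatives that kept all libraries, and with each of the 9 libraries left out in turn, the 30 log2 fold changes of the members were compared with their main values. Direction and side of the threshold were kept in 485 of 549 values, 21 lost their call, 16 gained one and 27 changed sign, and no called member changed sign. In each of these fits no member had an adjusted p under 0.05 by its own tool.

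Scaling by library totals left 1 member called for HFD vehicle against NC and 0 for DPI against vehicle, with Mmp9 at -0.16 in the first and Mmp25 at 0.01 in the second, and the median of all genes moved to -0.26 and 0.12. Reck changed sign for DPI against vehicle in the fit of the compared groups (-0.01) and with thinned counts (-0.22). With 0.5 count added, the Mmp9 to Timp1 ratio differed by -0.12 for DPI against vehicle.

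Same-numbered libraries of different groups did not deviate together (correlations of -0.022 to 0.084, against -0.084 to 0.061 for different numbers). Deviations of NC 1 and NC 2 from their mean mirror each other by construction, so these ranges are tied. They cannot decide whether libraries of the same number share a block. With the replicate block, 5 members were called for HFD vehicle against NC and 3 for DPI against vehicle (Mmp19, Adam8 and Plaur, the last at -1.32). The block changed signs for DPI against vehicle in Mmp9 (-1.46), Timp2 (0.22), Mmp25 (0.22), Reck (-0.96) and the Mmp9 to Timp1 ratio (-0.52), and for HFD DPI against NC in Mmp9 (-0.92), Mmp12 (0.99), Adam8 (-0.13) and Plaur (-0.29). Calls lost with it were Mmp25 (2.24), Col4a1 (-3.38), Sparc (-3.33) and Hbegf (6.45) for HFD vehicle against NC, Plau (-1.2) for DPI against vehicle and Mmp25 (2.45) for HFD DPI against NC. Calls over all genes were 897, 401 and 818 with it, against 1329, 324 and 1058 without it.

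Over all genes, a minimum of 10 counts in every sample gave 726, 202 and 527 calls for HFD vehicle against NC, DPI against vehicle and HFD DPI against NC, and no filter gave 602 for DPI against vehicle. Without NC 2 they were 2634, 542 and 2626, and for DPI against vehicle leaving out NC 1, vehicle 1, vehicle 2, vehicle 3 and DPI 1 gave 543, 187, 521, 210 and 213.

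Leaving out 1 library gave 1 to 5 members called for HFD vehicle against NC, 0 to 2 for DPI against vehicle and 0 to 3 for HFD DPI against NC. Sign changes occurred, with these lowest to highest log2 fold changes, for HFD vehicle against NC in Mmp9 (-0.79 to 3.39), Mmp12 (-1.56 to 1.1), Mmp19 (-0.31 to 2.77), Adam10 (-0.54 to 0.05), Rhbdf2 (-0.64 to 0.68), Plau (-0.38 to 2.85) and Tnf (-0.04 to 2.57), and for DPI against vehicle on HFD in Mmp9 (-0.48 to 0.57), Mmp12 (-0.35 to 1.47), Timp2 (-0.51 to 0.46), Plaur (-1.12 to 0.07), Mmp25 (-0.73 to 1.15) and Reck (-1.22 to 0.7), and for HFD DPI against NC in Mmp9 (-0.62 to 3.56), Mmp12 (-0.84 to 1.42), Mmp19 (-1.92 to 1.16), Rhbdf2 (-1.21 to 0.11), Plau (-2.15 to 1.08), Tnf (-0.5 to 2.11) and Sparc (-2.75 to 0.04). The Mmp9 to Timp1 ratio ranged from -2.63 to 1.42 for HFD vehicle against NC and from -1.51 to 0.95 for DPI against vehicle. With 1 NC library left, it was assumed to vary like the other groups. The cause of these changes was not tested. Levels under 3 counts (0.184 to 1.02 CPM) could not be told from 0 at these depths. Timp1, Mmp2 and Mmp13 were at 0 in most libraries and held at most 26, 19 and 37 counts in the others, and Timp1 was at 0 in the deepest library.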
